A study of Homo sapiens with 6 samples.

Results

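The genes described here encode the 4 kinases that phosphorylate the translation factor eIF2 (EIF2AK1, EIF2AK2, EIF2AK3 and EIF2AK4), the subunit that they phosphorylate (EIF2S1), the transcription factors ATF4 and ATF5, both regulatory subunits that reverse the phosphorylation (PPP1R15A and PPP1R15B) and the stress protein gene NUPR1. They were taken by name, and all 10 had an identifier among the 60671 genes counted. RNA was sequenced from NCI-H69, an established human line from small cell lung cancer, a neuroendocrine tumour, labelled wild type. One group of 3 libraries came from cells given 20 µM GNF5, an allosteric inhibitor of the ABL kinases, for 48 h, and the other group of 3 came from cells given the vehicle DMSO for 48 h. The micromolar dose is the one attached to each sample, while the treatment protocol in the labels writes it in millimolar. All data come from 1 cell line and 1 time point. Whether the libraries of a group came from different cultures is not stated, so p-values reflect only the spread among these libraries, which may be technical.

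In this pathway, called the integrated stress response, each kinase senses a different stress. EIF2AK1 (HRI) is held inactive by heme and also relays mitochondrial stress, EIF2AK2 (PKR) binds double-stranded RNA, EIF2AK3 (PERK) sits in the membrane of the endoplasmic reticulum and reads unfolded proteins, and EIF2AK4 (GCN2) reads uncharged transfer RNA. Phosphorylated eIF2 blocks its own exchange factor eIF2B, which lowers most protein synthesis but raises translation of ATF4 and ATF5 from messengers with short upstream reading frames. ATF4 then switches on genes of amino acid supply and also PPP1R15A, which with protein phosphatase 1 takes the phosphate off eIF2 again, while PPP1R15B does so in unstressed cells. RNA counts show none of the phosphorylation or translation steps.

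Total counts ran from 46148701 to 58771023 in the GNF5 libraries and from 56467189 to 60697602 in the DMSO libraries. Neuroendocrine markers were present in every library, with 7 genes summing to 3440 to 3573 CPM (counts scaled to the library's TMM-normalised size) with GNF5 and 3215 to 3310 with DMSO, led by INSM1 and NCAM1. The single markers differed in direction, with NCAM1 at 718 to 739 CPM with GNF5 and 476 to 496 with DMSO, DDC at 100.5 to 107 with GNF5 and 242 to 261 with DMSO, and SYP at 146 to 153 with GNF5 and 172 to 192 with DMSO. Fibroblast markers summed to 64.8 to 72.0 CPM with GNF5 and 120.2 to 125.9 with DMSO, nearly all of it COL1A2, while DCN did not exceed 5 counts in a GNF5 library and 22 in a DMSO library. COL1A1 went the other way, at 5.06 to 5.69 CPM with GNF5 and 2.71 to 2.99 with DMSO. Leukocyte markers summed to 3.18 to 4.05 CPM with GNF5 and 4.6 to 4.88 with DMSO, with CD3E at 0 counts in all 6 libraries, and erythroid markers to at most 0.238 CPM with GNF5 and 0.372 with DMSO, with HBB and ALAS2 at 0. Their part in the results below was not tested.

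Of these 10 genes, 8 were higher with GNF5 and none was lower in edgeR's quasi-likelihood test at an adjusted p under 0.05, whereas EIF2AK1 and EIF2S1 did not pass. Lower genes also numbered 0 at an unadjusted p under 0.05 in edgeR. At an adjusted p under 0.05 in the Wald test of DESeq2 they numbered 0 too, with EIF2AK1 near the threshold (adjusted p = 0.0539). All 10 passed the filter on low counts, with between 147 and 43604 counts per library. NUPR1 and PPP1R15A changed most. Of all 20734 genes tested, 61.6% passed in either direction, 31.0% higher and 30.7% lower, so passing was by itself common. The median log2 fold change of these genes was 0.59, against 0.0057 over all genes tested. A change of at least 2-fold upwards, which 4.95% of tested genes showed, was seen for ATF5, PPP1R15A and NUPR1. The values of the 3 GNF5 libraries lay wholly to one side of the 3 DMSO values for 9 of the 10 genes, a separation that 65.9% of tested genes showed. In bulk RNA, fewer cells with a transcript and less of it per cell cannot be told apart.

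**Figure D1:**
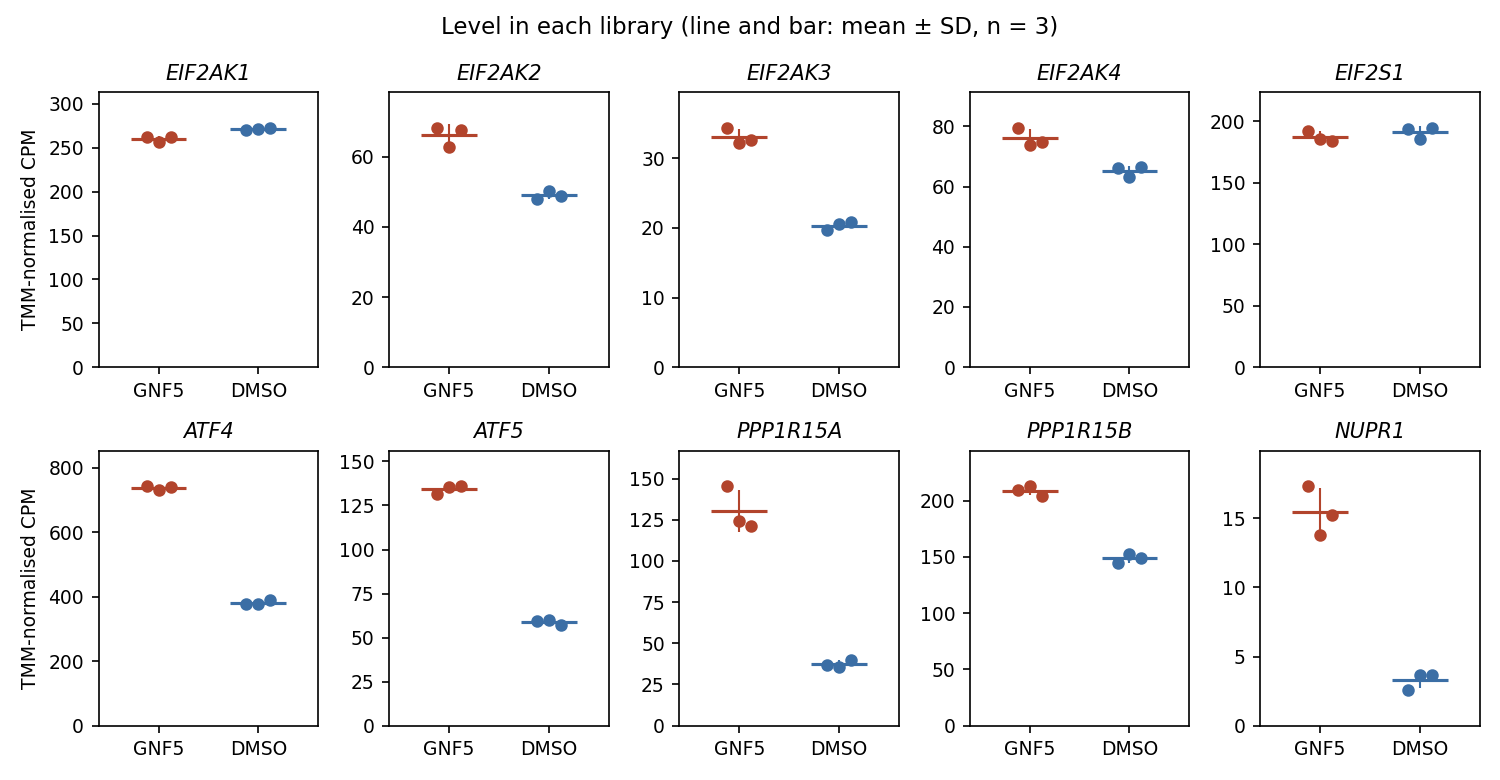
Level of each gene in TMM-normalised CPM (vertical axes from 0, a separate scale per gene) in the 3 GNF5 libraries (red) and the 3 DMSO libraries (blue), with the mean and SD. EIF2AK1 and EIF2S1 sit at nearly the same height in both groups, while NUPR1 averages 15.4 CPM with GNF5 and 3.31 with DMSO.

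Among the kinases, the endoplasmic reticulum sensor changed most. EIF2AK3 (ENSG00000172071, chromosome 2, 88556741 to 88627464, GRCh38) had 34.4, 32.2 and 32.6 CPM in GNF5 cells, against 19.7, 20.5 and 20.8 CPM in DMSO cells. Every GNF5 library was above every DMSO library, and the spread within a group was small beside the gap. EIF2AK3 rose 1.62-fold, or by 0.70 ± 0.052 on the log2 scale (SE; edgeR adjusted p = 1.75e-12), and 9.91% of tested genes had a larger rise.

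EIF2AK2 (ENSG00000055332, chromosome 2, 37099210 to 37157065), the double-stranded RNA sensor that interferon is known to induce, had 68.2, 62.8 and 67.7 CPM in GNF5 cells, against 48.0, 50.2 and 48.7 CPM in DMSO cells. The groups did not overlap, with GNF5 replicate 2 the lowest of its group. It rose 1.35-fold, or by 0.44 ± 0.043 on the log2 scale (edgeR adjusted p = 8.13e-10). Its RefSeq start carries letters of the element through which interferon acts, shown here because the interferon genes are set beside it below. The stretch runs from 16 bases before to 14 bases after the start, chr2:37156967-37156996 on the minus strand (RefSeq, GRCh38.p14), with the match to the core of the interferon-stimulated response element in capitals, which is GAAA, any 2 bases and GAAA again.
EIF2AK2: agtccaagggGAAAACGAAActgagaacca
These letters, on either strand, are found in 3.57% of the 35116 RefSeq windows of 300 bases around gene starts. Such a match describes the sequence and is no evidence of binding.

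The amino acid sensor EIF2AK4 (ENSG00000128829, chromosome 15, 39934115 to 40035591) had 79.5, 73.9 and 74.9 CPM in GNF5 cells, against 66.1, 63.3 and 66.4 CPM in DMSO cells. Its groups were separate but close, and the rise was 1.17-fold (log2 fold change 0.22 ± 0.041, edgeR adjusted p = 2.74e-05). The heme-regulated kinase EIF2AK1 (ENSG00000086232, chromosome 7, 6022247 to 6059175) had 262, 256 and 263 CPM in GNF5 cells, against 269.8, 272 and 273 CPM in DMSO cells. All GNF5 values lay below all DMSO values, yet the difference was small and did not pass (log2 fold change -0.06 ± 0.031, edgeR adjusted p = 0.101). Scaling by upper quartiles brought it past the threshold as lower (adjusted p = 0.0193, log2 fold change -0.09), as did the stricter filter (adjusted p = 0.0396, log2 fold change -0.07), and its adjusted p ran from 0.0193 to 0.284 over the 12 alternatives.

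Compared per length of exon, EIF2AK1 was by far the most abundant kinase RNA in both groups. Of the summed level of the 4 kinases in CPM per kilobase of exon (RPKM), EIF2AK1 made up 71.9% ± 0.567 in GNF5 cells and 78.3% ± 0.0936 in DMSO cells (SD, n = 3 each). EIF2AK3 held 9.16% ± 0.207 with GNF5 and 5.89% ± 0.125 with DMSO, EIF2AK2 held 9.34% ± 0.248 with GNF5 and 7.21% ± 0.155 with DMSO, and EIF2AK4 held 9.62% ± 0.252 with GNF5 and 8.63% ± 0.229 with DMSO. The sum itself was 66.0 ± 1.24 RPKM with GNF5 and 63.1 ± 0.415 RPKM with DMSO. Each share and the sum differed between the groups without overlap, as did 65.9% of single tested genes. Each had an exact two-sided permutation p of 0.1, the smallest that 3 against 3 libraries allow. The shares are parts of 1 whole, so they are not independent. Lengths are those of all annotated exons merged, which lowers the level per length of genes with long or many rare exons, such as EIF2AK2 with 10753 bases.

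The kinases changed by different amounts within the same libraries. The log2 ratio of EIF2AK3 to EIF2AK1 per length was -2.97 ± 0.043 in GNF5 cells and -3.73 ± 0.032 in DMSO cells (SD, n = 3 each), a difference of 0.76 ± 0.031 (SE). EIF2AK3 also moved up against EIF2AK4 by 0.48 ± 0.035 and against EIF2AK2 by 0.26 ± 0.033. The smallest of the 6 differences between kinases was that of EIF2AK2 against EIF2AK4, at 0.21 ± 0.048. Over the 8 pairs of genes compared in this way, each pair was without overlap between the groups. Each had an exact two-sided permutation p of 0.1, also after adjustment over the 8, which is the smallest possible. Of single tested genes, 65.9% separated without overlap, and the share among all gene pairs was not computed. The 6 ratios between kinases rest on the same 4 genes, so they are not independent.

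The substrate of the kinases did not change detectably. EIF2S1 (ENSG00000134001, chromosome 14, 67360151 to 67386516), the alpha subunit of eIF2, had 193, 185 and 184 CPM in GNF5 cells, against 193.5, 186 and 195 CPM in DMSO cells. The groups overlapped. Its log2 fold change was -0.03 ± 0.034 (edgeR adjusted p = 0.434), with an interval of about 2 SE on each side from -0.10 to 0.03.

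ATF4, the central transcription factor of the response, rose to nearly double its vehicle level. ATF4 (ENSG00000128272, chromosome 22, 39519672 to 39522683) had 742, 732 and 741 CPM in GNF5 cells, against 377, 379 and 390.0 CPM in DMSO cells. Replicates within a group lay close together and the groups were far apart. The ratio was 1.93-fold, or 0.95 ± 0.031 on the log2 scale (edgeR adjusted p = 2.15e-20), and 5.63% of tested genes had a larger rise. The 4 annotated ATF4 pseudogenes took few fragments, the most being ATF4P3 with 359, 285 and 279 counts in GNF5 libraries and 147, 182 and 186 in DMSO libraries, or 0.785% of the ATF4 count over all libraries. The counting command in the file headers holds no option to count fragments that map to several places. Fragments that fit ATF4 and a pseudogene equally well would thus be missing from both counts, and their number is not known.

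ATF5 (ENSG00000169136, chromosome 19, 49928702 to 49933935), a related factor linked in mammals to mitochondrial protein stress, had 131, 136 and 136 CPM in GNF5 cells, against 59.4, 59.9 and 57.2 CPM in DMSO cells. The groups were well apart. ATF5 rose 2.28-fold (log2 fold change 1.19 ± 0.037, edgeR adjusted p = 6e-21). The log2 ratio of ATF4 to ATF5 per length was 2.45 ± 0.034 with GNF5 and 2.69 ± 0.061 with DMSO (SD, n = 3 each), a difference of -0.24 ± 0.041 (SE), so ATF5 moved further than ATF4. NUP62 shares 19.5% of the exon bases of ATF5 on the opposite strand, and the fragments were counted by strand.

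**Figure D2:**
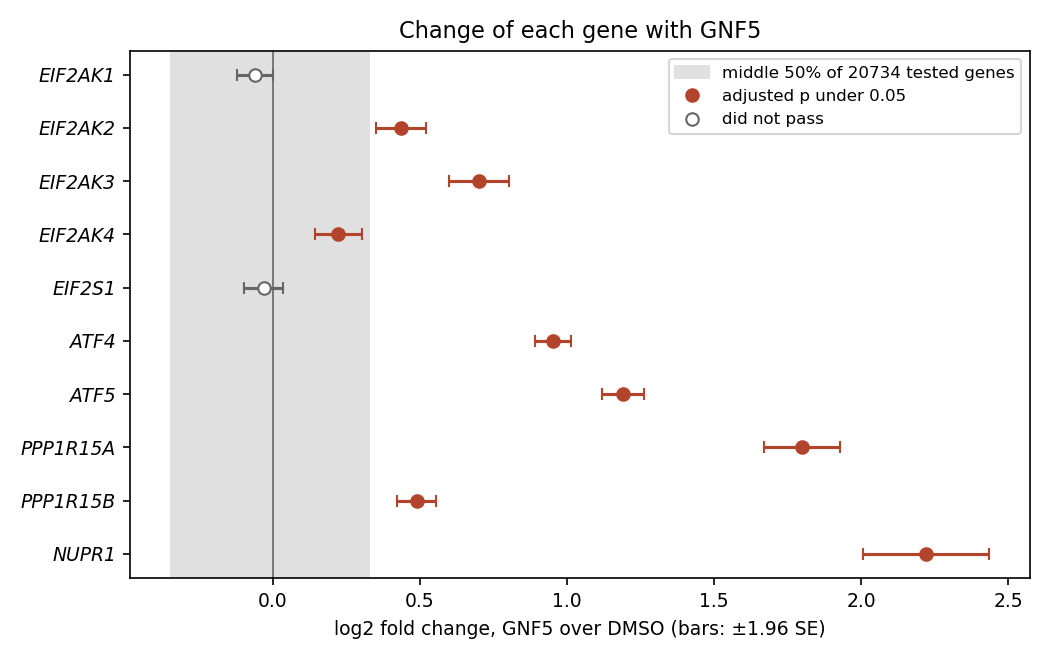
Log2 fold change of each gene, GNF5 over DMSO (horizontal axis), with bars of about 2 SE; filled points passed edgeR's test and open points did not, and the grey band holds the interquartile range of all 20734 tested genes. NUPR1 lies furthest right at 2.22, followed by PPP1R15A at 1.80, while EIF2AK1, EIF2S1 and EIF2AK4 lie inside the band.

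The stress-induced phosphatase subunit rose more than the constitutive one. PPP1R15A (GADD34; ENSG00000087074, chromosome 19, 48872421 to 48876058) had 145, 124 and 121 CPM in GNF5 cells, against 36.8, 35.5 and 40.1 CPM in DMSO cells. GNF5 replicate 1 stood above the other GNF5 libraries, and all 3 were above the DMSO libraries. PPP1R15A rose 3.48-fold (log2 fold change 1.80 ± 0.066, edgeR adjusted p = 1.13e-11), and 1.26% of tested genes had a larger rise. PPP1R15B (CReP; ENSG00000158615, chromosome 1, 204403381 to 204411817) had 209, 213 and 204 CPM in GNF5 cells, against 144, 153 and 149 CPM in DMSO cells. Its groups did not overlap either, with a rise of 1.40-fold (log2 fold change 0.49 ± 0.034, edgeR adjusted p = 4.75e-13).

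Within a library the balance of the subunits shifted. The log2 ratio of PPP1R15A to PPP1R15B per length was 0.25, 0.01 and 0.03 in the GNF5 libraries and -1.19, -1.32 and -1.12 in the DMSO libraries. PPP1R15A RNA was thus about level with PPP1R15B RNA in GNF5 cells and clearly below it in DMSO cells. The difference was 1.31 ± 0.099 (SE), the largest of the 8 pairs, at the same exact two-sided permutation p of 0.1.

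The sequences upstream of this pair are shown because both genes do the same job and their changes differ in size. They are RefSeq windows of GRCh38.p14, from 250 to 31 bases before the start of PPP1R15A (chr19:48872171-48872390, plus strand) and from 250 to 131 bases before that of PPP1R15B (chr1:204411948-204412067, minus strand), with motif letters in capitals.
PPP1R15A: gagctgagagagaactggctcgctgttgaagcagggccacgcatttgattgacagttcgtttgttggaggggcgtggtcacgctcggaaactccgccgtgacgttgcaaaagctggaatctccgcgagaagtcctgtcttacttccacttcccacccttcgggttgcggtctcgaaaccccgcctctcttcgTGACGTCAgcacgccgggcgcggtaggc
PPP1R15B: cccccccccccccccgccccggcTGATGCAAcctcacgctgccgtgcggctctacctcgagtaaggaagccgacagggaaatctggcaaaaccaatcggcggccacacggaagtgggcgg
In PPP1R15A the capitals mark the cyclic AMP response element TGACGTCA, from 58 to 51 bases before the start, whose letters occur in 1.85% of all windows. In PPP1R15B they mark TGATGCAA, a match to the C/EBP-ATF response element TGATGNAA, from 227 to 220 bases before the start. The letters of that element occur in 3.62% of all windows. Whether ATF4 or another factor binds either element was not tested. Windows were given for 8 of the 10 genes, and the other two, EIF2AK1 and NUPR1, are named only. Besides these elements, both strands were searched for the E-box CACGTG, found once in each ATF4 window and in the EIF2AK2 window (7.26% of all windows), for the interferon element core, found in EIF2AK2 and in 1 of 3 ATF5 windows, and for the endoplasmic reticulum stress element, CCAAT and CCACG with 9 bases between, found in none of them and in 0.0769% of all windows. The windows of EIF2AK3, EIF2AK4 and EIF2S1 held none of these motifs, and no motif found overlapped a different one. The absence of these letters in such a window says nothing about the factors.

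NUPR1, a small chromatin-associated stress protein that ATF4 is known to induce, had the largest fold change of the 10 genes and the lowest mean CPM. NUPR1 (ENSG00000176046, chromosome 16, 28532708 to 28539008) had 1016, 638 and 798 counts in the GNF5 libraries and 147, 220 and 213 in the DMSO libraries. In CPM these were 17.3, 13.8 and 15.2 with GNF5, against 2.60, 3.64 and 3.70 with DMSO. The groups were far apart, although the replicates differed more in proportion than those of the abundant genes. The rise was 4.66-fold, or 2.22 ± 0.109 on the log2 scale (edgeR adjusted p = 1.97e-15), and 0.637% of tested genes had a larger one.

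Ordered by level per length, these RNAs spanned a wide range, and their order differed between the groups. In GNF5 cells ATF4 had 253.7 ± 1.93 RPKM, followed by EIF2AK1 (47.4 ± 0.633), ATF5 (46.4 ± 0.863), PPP1R15A (42.5 ± 4.23), PPP1R15B (39.7 ± 0.797) and EIF2S1 (34.1 ± 0.839). In DMSO cells ATF4 had 131 ± 2.41 RPKM, followed by EIF2AK1 (49.4 ± 0.27), EIF2S1 (34.8 ± 0.853), PPP1R15B (28.3 ± 0.789), ATF5 (20.3 ± 0.498) and PPP1R15A (12.2 ± 0.766). The libraries of neighbours in this order overlapped in GNF5 cells from EIF2AK1 down to PPP1R15B, so adjacent ranks there are not separated by replicate spread. No neighbours overlapped in DMSO cells. At the low end EIF2AK4, EIF2AK2 and EIF2AK3 had 6.35 ± 0.25, 6.16 ± 0.275 and 6.04 ± 0.214 RPKM in GNF5 cells, which overlapped one another, against 5.45 ± 0.142, 4.55 ± 0.105 and 3.72 ± 0.102 in DMSO cells, which did not. NUPR1 was last, with 2.80 ± 0.323 RPKM with GNF5 and 0.601 ± 0.112 with DMSO. This rank rests on a merged exon length of 5508 bases, so the caution above on merged lengths applies to it.

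**Figure D3:**
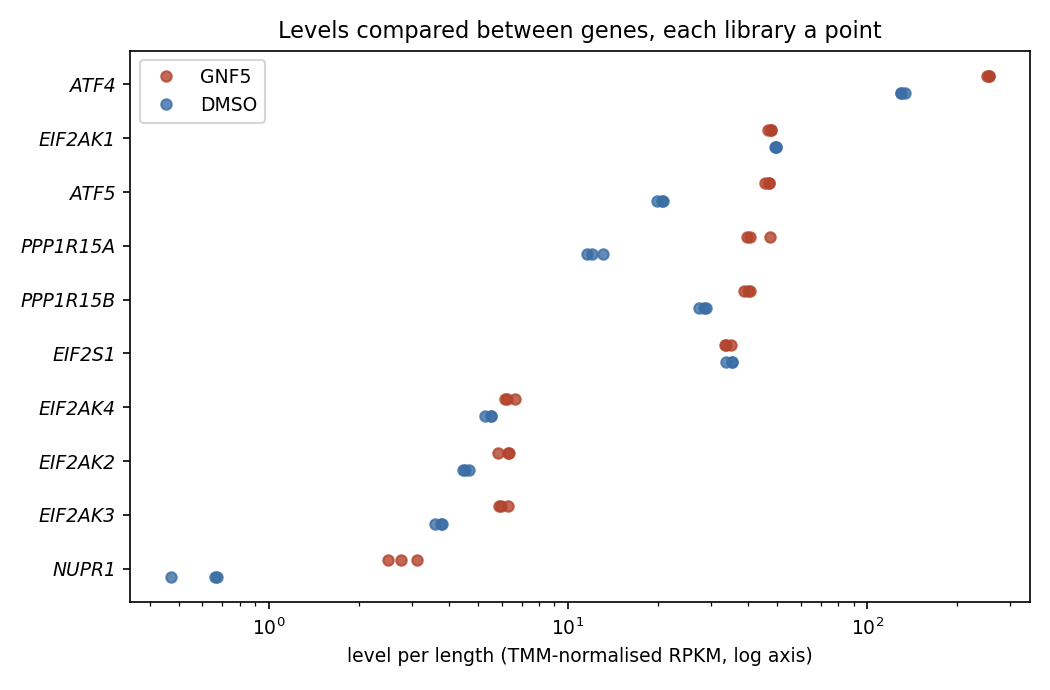
Level per exon length of each gene in RPKM (horizontal axis, logarithmic), 1 point per library, with GNF5 (red) above DMSO (blue) and genes ordered by their GNF5 level. ATF5 and PPP1R15A reach the level of EIF2AK1 and PPP1R15B with GNF5 but lie below both with DMSO.

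Across the 3 GNF5 libraries, replicate 1 held the highest CPM for 7 of the 10 genes and replicate 2 the lowest for 6, which is a description of these libraries.

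The partners of EIF2S1 in eIF2 and its exchange factor rose slightly or did not pass. Of 7 genes of the other eIF2 subunits and eIF2B, 4 rose and none fell, with a median log2 fold change of 0.13. Also, 0 fell at an unadjusted p under 0.05 in edgeR or at an adjusted p under 0.05 in the Wald test of DESeq2. For this list and those below, the shares over all tested genes were 31.0% higher and 30.7% lower. EIF2S2 and EIF2S3, the beta and gamma subunits, rose (0.40 ± 0.034 and 0.29 ± 0.032). For eIF2B, EIF2B2 rose (0.19 ± 0.047) and EIF2B4 rose by little (0.13 ± 0.053, edgeR adjusted p = 0.0407), a call that 9 of 12 alternatives did not make. It was lost without DMSO replicate 2 (adjusted p = 0.267), DMSO replicate 3 (0.0697) or GNF5 replicate 2 (0.15). EIF2B1, EIF2B3 and EIF2B5 were at 0.06, 0.05 and -0.05. The 7 pseudogenes of EIF2S2 held 12.7% as many counts as the gene, so its level is uncertain.

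Genes that act on the kinases mostly rose. Of 10, 7 rose, TARBP2 fell and 2 did not pass, with a median of 0.18. DNAJC3, an inhibitor of PERK and PKR, had 136.8 ± 4.83 CPM with GNF5 and 80.1 ± 4.33 CPM with DMSO (SD, n = 3 each). HSPA5 (BiP), the chaperone that holds PERK inactive, had 1063 ± 13.9 CPM with GNF5 and 726 ± 23.0 CPM with DMSO. PRKRA, an activator of PKR, and IMPACT, an inhibitor of GCN2, rose (log2 fold changes 0.57 ± 0.047 and 0.36 ± 0.045), while TARBP2, an inhibitor of PKR, fell (-0.23 ± 0.045). GCN1, the coactivator of GCN2, was at -0.01 ± 0.032 and the mitochondrial protease gene OMA1 at 0.04 ± 0.161. NCK1, an adaptor, was counted among those that rose, but not without GNF5 replicate 1 (adjusted p = 0.0738) or DMSO replicate 1 (0.0507).

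The RNAs of the catalytic partners of the PPP1R15 subunits differed in direction. PPP1CA had 119 ± 2.68 CPM with GNF5 and 176 ± 6.54 CPM with DMSO (log2 fold change -0.57 ± 0.036). PPP1CC also fell (-0.22 ± 0.031), while PPP1CB rose (0.24 ± 0.036). All 3 thus passed, as did 61.6% of all tested genes in either direction.

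**Figure D4:**
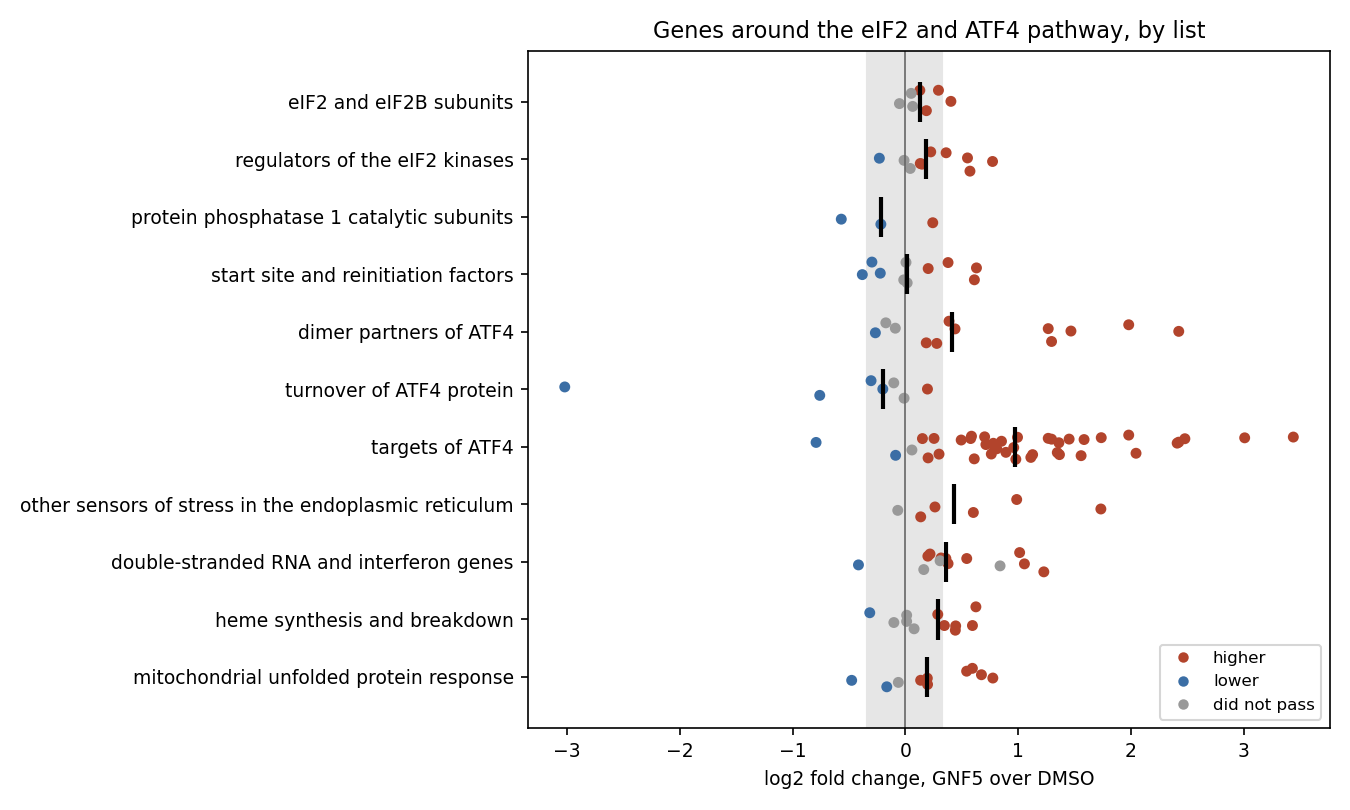
Log2 fold change, GNF5 over DMSO (horizontal axis), of each tested gene in 11 lists around the pathway; points are coloured by edgeR's call, black bars are medians and the grey band holds the interquartile range of all tested genes. Targets of ATF4 have the highest median, 0.97, and EGLN3 is the point furthest left at -3.02.

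The targets of ATF4 were mostly higher. Of 40 targets, 37 rose, 2 fell and 1 did not pass, with a median log2 fold change of 0.97. DDIT3 (CHOP), which partners ATF4, rose 5.36-fold, and GDF15, a secreted stress cytokine, rose 5.57-fold. SLC7A11, the cystine transporter, and PCK2, a mitochondrial enzyme, rose by 1.58 and 1.37 on the log2 scale. The largest rise on the list was in TRIB3, a pseudokinase that restrains ATF4, named after its values were seen, with 448, 424 and 434 CPM in GNF5 cells and 35.6, 40.0 and 44.6 CPM in DMSO cells. DDIT4, an inhibitor of mTORC1, fell (-0.79 ± 0.04), as did ALDH18A1 (-0.09 ± 0.036, edgeR adjusted p = 0.0387), an enzyme of proline synthesis. The ALDH18A1 call was lost without GNF5 replicate 1 (adjusted p = 0.113), GNF5 replicate 2 (0.104) or DMSO replicate 3 (0.124). CBS, of cysteine synthesis, had 11.2, 10.3 and 12.6 CPM with GNF5 and 8.85, 14.9 and 9.04 with DMSO, and it passed as higher without DMSO replicate 2 (adjusted p = 0.00223).

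RNAs of the proteins with which ATF4 pairs also rose for the most part. Of 12 tested dimer partners (FOSL1 was too low to test), 9 rose, 1 fell and 2 did not pass, with a median of 0.41. CEBPB had 85.9 ± 1.43 CPM with GNF5 and 21.8 ± 2.83 CPM with DMSO, and CEBPG had 332 ± 10.9 CPM with GNF5 and 135.2 ± 6.47 CPM with DMSO. ATF3, a repressor of the same family, rose by 1.27 ± 0.048 on the log2 scale. CEBPD fell (-0.27 ± 0.046), and FOSL2 (-0.09 ± 0.044) and FOS (-0.17 ± 0.1) did not pass. FOSL2 was called lower without GNF5 replicate 3 (adjusted p = 0.0473) or DMSO replicate 1 (0.0273). DDIT3, ATF3, CEBPB and CEBPG stand on both this list and that of the targets.

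Of 7 genes that act on the stability of ATF4 protein, 4 fell, 1 rose and 2 did not pass, with a median of -0.20. EGLN3, a prolyl hydroxylase that destabilises ATF4 and that hypoxia is known to induce, had 4.53, 4.98 and 4.50 CPM in GNF5 cells and 35.3, 38.2 and 40.1 CPM in DMSO cells. The ubiquitin ligase components RBX1, SKP1 and CUL1 fell (log2 fold changes -0.76, -0.31 and -0.20). FBXW11, one of the F-box proteins that bind ATF4, rose (0.19 ± 0.038), while its relative BTRC (-0.10 ± 0.051; lower with upper-quartile factors and with the stricter filter) and the acetyltransferase gene EP300 (-0.01 ± 0.036) did not pass.

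Of 10 factors of start codon choice and reinitiation, the step at which ATF4 is controlled, 4 were higher and 3 lower. Their median was 0.01, and the shares were near those over all tested genes, 31.0% higher and 30.7% lower. EIF1, which enforces strict start codon choice, had 956 ± 57.8 CPM with GNF5 and 618 ± 17.1 CPM with DMSO, and EIF2D, a reinitiation factor, rose (0.61 ± 0.045). BZW1, EIF1AX and MCTS1 fell (-0.38, -0.30 and -0.22). DENR, EIF5B and BZW2 were at -0.02, 0.01 and 0.004. Pseudogenes of EIF1AX held 14.9% as many counts as the gene, so its value is uncertain.

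Beside EIF2AK3, most genes of the other sensors in the endoplasmic reticulum and of proteins that act with them rose. Of 6 tested of 7 (ERN2 was too low to test), 5 rose and MBTPS1 did not pass (-0.07 ± 0.043), with a median of 0.43. ERN1 (IRE1) had 92.5 ± 3.57 CPM with GNF5 and 27.8 ± 0.289 CPM with DMSO, and ATF6 had 135.6 ± 4.16 CPM with GNF5 and 68.4 ± 2.59 CPM with DMSO. XBP1, whose messenger ERN1 splices, and ATF6B rose (0.60 ± 0.032 and 0.26 ± 0.042). MBTPS2, a protease that activates ATF6, was counted among those that rose, but not without DMSO replicate 1 (adjusted p = 0.0508) or DMSO replicate 2 (0.0636). MBTPS1 was called lower without DMSO replicate 2 (0.047).

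Beside EIF2AK2, genes of double-stranded RNA sensing and the interferon response mostly rose. Of 13 tested of 17, 9 rose, OAS3 fell and 3 did not pass, with a median of 0.36. IRF1, an interferon-induced factor, had 54.2 ± 1.79 CPM with GNF5 and 26.1 ± 1.14 CPM with DMSO, and ISG15, a ubiquitin-like protein, had 4.52 ± 0.0651 CPM with GNF5 and 1.93 ± 0.106 CPM with DMSO. STAT2 rose (0.36 ± 0.045) and OAS3, an activator of RNase L, fell (-0.42 ± 0.053). MAVS, the mitochondrial adaptor of RNA sensing, named after its values were seen, had 185.7 ± 1.25 CPM with GNF5 and 161.8 ± 4.12 CPM with DMSO. IFIT2, OAS1 and IFIH1 had log2 fold changes of 0.84 ± 0.469, 0.31 ± 0.179 and 0.16 ± 0.141. IFIT3, MX1, OAS2 and TLR3 were too low to test. RIGI, a cytosolic RNA sensor, was counted among those that rose, but not without GNF5 replicate 1 (adjusted p = 0.0804) or DMSO replicate 3 (0.0967).

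Beside EIF2AK1, 6 of 11 genes of heme synthesis and breakdown rose and 1 fell, with a median of 0.29. BACH1, a repressor that heme inactivates, rose by 0.62 ± 0.046, and ALAS1, the rate-limiting enzyme of heme synthesis, had 66.3 ± 3.45 CPM with GNF5 and 48.8 ± 2.19 CPM with DMSO. FECH and PPOX rose (0.34 ± 0.041 and 0.44 ± 0.053), and HMOX2, which breaks heme down, fell (-0.32 ± 0.048). HMOX1, which also breaks heme down and was named after its values were seen, rose (0.59 ± 0.086). Among those that did not pass, UROS, ALAD and UROD were at -0.10, 0.01 and 0.01.

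Beside ATF5, 7 of 10 genes of mitochondrial protein quality control rose, 2 fell and CLPP did not pass (-0.06 ± 0.042), with a median of 0.19. The chaperone gene HSPA9 had 1307 ± 17.8 CPM with GNF5 and 764 ± 12 CPM with DMSO, and the protease gene LONP1 had 507 ± 9.95 CPM with GNF5 and 318 ± 5.71 CPM with DMSO. DNAJA3 and CLPX rose (0.59 ± 0.035 and 0.54 ± 0.041), whereas HSPE1, the small partner of the chaperone HSPD1, and the protease gene SPG7 fell (-0.48 ± 0.043 and -0.17 ± 0.043). HTRA2 was counted among those that rose, but not without GNF5 replicate 2 (adjusted p = 0.0611) or DMSO replicate 2 (0.217). HSPE1 and HSPD1 have many pseudogenes, 26 and 18 by symbol, so their levels are uncertain.

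Over the 6 libraries, the genes whose log2 CPM followed that of ATF4 most closely were SSR3, FEZ1, ASS1, ZNF518B and PHF21B, with Pearson r from 0.99979 to 0.99999. The 6 points fall into 2 groups by treatment, and 3015 of 13408 genes searched had r over 0.95, so such values say mainly that a gene was higher with GNF5 and steady within groups. SSR3, a subunit of the translocon-associated protein complex, had 224.9 ± 2.14 CPM with GNF5 and 117.7 ± 2.14 CPM with DMSO. ASS1, argininosuccinate synthase, had 655 ± 7.44 CPM with GNF5 and 111 ± 6.68 CPM with DMSO. Among the genes of the pathway itself, ATF5, EIF2AK3 and PPP1R15A had r with ATF4 of 0.997, 0.996 and 0.996. EIF2S1 and EIF2AK1, which did not pass, had -0.465 and -0.92.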

How the data were processed

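The deposited values are raw counts of fragments per gene, 1 file per library. The authors made these counts from paired reads with featureCounts 1.6.1 (reverse strand, exons added up per gene) on GRCh38 as annotated in Ensembl 101, per the file headers. The submitters' processing notes list other tools as well, namely STAR, HTSeq, Trim Galore and DESeq2, and the build GRCh37, so the headers were followed for coordinates. The exon length per gene is the other value used, as deposited.

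Symbols came from a gene name table (60401 of 60671 identifiers), with RefSeq synonyms for older names. GNF5 was compared with DMSO in edgeR 4.0.16 (R 4.3.3), by the robust quasi-likelihood test with TMM normalisation, the default expression filter, no covariate and Benjamini-Hochberg adjustment over all 20734 genes tested. The 39937 genes removed held 0.0630% of counts. An adjusted p under 0.05 counts as a call. The SE is the log2 fold change divided by the square root of F. A level of 3 counts corresponds to between 0.0494 and 0.065 CPM, counting error only. The fit was tested on simulated data, in which 100 of 20381 genes changed by 1 and 100 by 0.5 on the log2 scale. It recovered 100% and 91% of these, and 4.5% of its calls were false. Far fewer genes changed there than the 61.6% that passed here, so the simulation does not show how the fit performs on these data.

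Ratios between genes were tested by exact permutation. Lists are given by counts and medians, with no set test. Named in each list are up to 4 called genes with the lowest p and a mean log2 CPM of at least 1, those called against the majority, and those not passing where 5 or fewer; genes whose call was lost without 1 library were named after their values were seen. Single values of some list genes are not reported here. The genes, lists and tests were chosen with earlier results of these data known.

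No 2 libraries of a group agreed within sampling noise (chi-square per degree of freedom between 3.12 and 8.76), so all 6 were kept. Alternatives were DESeq2 size factors, upper-quartile factors, the DESeq2 1.42.0 Wald test, no filter, a filter of at least 1 CPM in at least 3 libraries, a replicate block, and leaving out each library.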

Additional observations from a re-analysis of the deposited data

How the results depend on the processing

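Of 120 log2 fold changes of the 10 genes under 12 alternatives, 118 kept their direction and their side of the threshold and 2 gained a call. Those 2 were for EIF2AK1, lower with upper-quartile factors (-0.085, adjusted p = 0.0193) and with at least 1 CPM in at least 3 libraries (-0.071, adjusted p = 0.0396), so that 1 of the 10 genes was lower there. The median shift in log2 fold change over shared genes was -0.0258 with upper-quartile factors and -0.0114 with the stricter filter, and EIF2AK1 moved by about as much in each. The counts of higher genes were within 1.5 times the value given for all 10 genes together, for all genes tested (5693 to 6420) and for every list. Dimer partners of ATF4 that fell numbered 2 with upper-quartile factors and with the stricter filter, and 1 to 2 when a library was left out. Targets of ATF4 that fell numbered 1 with no filter and 1 to 2 when a library was left out. Genes of the endoplasmic reticulum sensors and of proteins that act with them that fell numbered 0 to 1 when a library was left out. The cause of these shifts was not tested.

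With the replicate block, 6279 genes were higher and 6196 lower, 8 of the 10 genes were higher and 0 lower, and 1 target of ATF4 was lower, because ALDH18A1 did not pass (adjusted p = 0.0596). The numbers did not pair the libraries: deviations of GNF5 and DMSO libraries with the same number correlated at -0.197, -0.0868 and 0.00828.

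TPM rescales RPKM by 1 factor per library, so the order of genes within a library is the same by construction. With 3 libraries a group, an exact permutation test cannot go below 0.1.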
